A study of Mus musculus with 16 samples.

Results

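The RNA content of isolated protrusions was compared between a fibroblast line expressing a β-globin construct with the Pkp4 3′UTR (Pkp4 cUTR) and a control line expressing the same coding sequence with the β-globin 3′UTR (HBB). The samples were chosen by line and fraction from their labels: 4 Pkp4 cUTR and 4 HBB protrusion samples, 8 of the 16 samples sequenced. Both lines were NIH/3T3 cells, an established line of mouse embryonic fibroblasts, transduced with a lentiviral, doxycycline-inducible construct and selected with geneticin, and all groups received 1 µg/ml doxycycline for 3 days. Serum-starved cells spent 2 h on filters with 3.0 µm pores, with lysophosphatidic acid (LPA) in the lower chamber for 1 h, and were fixed in 0.3% paraformaldehyde for 10 min. Protrusions (Ps) were the material collected from the underside of the filter after the cell bodies (CB) had been wiped off, and cell bodies came from other filters. Each construct was represented by 1 stable line, so the construct and the line that carried it cannot be told apart, and nothing in the sources states whether the lines were clones or pools.

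A protrusion is the leading, actin-rich extension of a migrating cell. Certain mRNAs are carried along microtubules into protrusions by elements in their 3′UTRs, and one group of them, which includes Pkp4, Rab13, Net1, Kank2, Ddr2 and Cyb5r3, depends on the adenomatous polyposis coli protein (APC) at microtubule plus ends. The Pkp4 3′UTR construct was made to compete with these endogenous RNAs for the localization machinery. Actomyosin contraction, adhesion to the extracellular matrix and the microtubule network are parts of the same migration machinery, and their genes were therefore followed as groups here.

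The deposited values were log2 CPM, the log2 of reads per 1000000 reads of a scaled library, for 12900 RNAs. Summed over these RNAs, the reads behind the values numbered 18660287 to 24995042 per protrusion sample. The medians of these sums were 21390537.5 in HBB and 21990214 in Pkp4 cUTR protrusions. Reads outside these RNAs are not in the sums, so they are not the sequencing depth. The study reports more mapped reads per sample than these sums. A count of 3 reads corresponded to 0.132 to 0.176 CPM. Differences between lines are given as log2(Pkp4 cUTR/HBB), and an RNA was said to rise or fall when the Benjamini-Hochberg adjusted p from limma was under 0.05 over all 12900 RNAs. Along the first principal component of the protrusion samples, with 40.2% of the variance, 85.3% of the spread lay between the lines. Between replicate numbers lay 78.4% and 96.0% of the spread of the next 2 components, which held 21.05% and 14.1% of the variance. For this reason the counts of called list members in protrusions are also given for a fit with the replicate number as a block, where that moved them by more than 1.5 times. Over all RNAs that fit called 9.14% as rises and 10.2% as falls, against 2.89% and 4.26% without the block, and the list counts are to be read beside these shares. In these bulk samples fewer cells of one state and less RNA per cell cannot be told apart. Replicates are numbered in the labels, and the study describes them as independent.

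Pkp4 itself, which encodes a plakophilin of the armadillo-repeat family found at cell junctions and in protrusions, was the RNA with the most pronounced rise among those with a mean log2 CPM of at least 3. Its log2 CPM was 5.87, 5.76, 6.35 and 6.05 in HBB protrusions and 9.80, 9.14, 8.96 and 9.43 in Pkp4 cUTR protrusions. All Pkp4 cUTR samples lay far above all HBB samples, by 3.32 on the log2 scale (SE 0.19), a 10.0-fold difference (adjusted p = 5.84e-09, limma). The gene lies on GRCm38 at chr2:59160850-59355208, plus strand. The construct carries the mouse Pkp4 3′UTR, so that reads from the construct and from the endogenous gene are counted together on Pkp4 and cannot be told apart. In cell bodies, where the log2 CPM was 4.46, 4.53, 4.45 and 4.43 in HBB and 8.82, 9.24, 9.32 and 8.26 in Pkp4 cUTR cells, the difference was larger, at 4.44. The protrusion difference was smaller than the cell-body difference by 1.12 on the log2 scale (unadjusted p = 0.000875, limma interaction).

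Of the other RNAs known from this localization pathway, 4 of 5 did not pass the test in protrusions. This test compares protrusion levels between the lines and does not show whether localization changed. The study instead assessed enrichment in protrusions over cell bodies. By in situ hybridization it also found Ddr2 and Kank2 RNAs less peripheral in cells expressing the Pkp4 3′UTR. Rab13, which encodes a small GTPase of vesicle traffic, had a log2 CPM of 6.32, 6.08, 6.56 and 5.92 in HBB and of 6.28, 6.13, 6.49 and 6.01 in Pkp4 cUTR protrusions. These ranges overlapped almost fully and the difference was 0.01 (SE 0.12, adjusted p = 0.974). Net1, a guanine nucleotide exchange factor, differed by −0.18 (SE 0.13), the collagen receptor kinase Ddr2 by 0.11 (SE 0.10) and the cytochrome b5 reductase Cyb5r3 by −0.19 (SE 0.14), with overlapping groups and adjusted p from 0.459 to 0.553. Kank2, a cortical protein at the rim of focal adhesions, fell, with a log2 CPM of 8.76, 8.56, 9.17 and 8.78 in HBB and of 8.62, 8.11, 8.13 and 8.32 in Pkp4 cUTR protrusions. Replicate 1 of the Pkp4 cUTR line lay within the HBB range, the other 3 samples lay below it, and the difference was −0.53 (SE 0.13, adjusted p = 0.0153). This call was kept in 5 of the 8 fits that left out 1 sample. In cell bodies Net1 differed by 0.33, and the unadjusted p of its difference between fractions was 0.0374 (limma interaction). For Rab13, Kank2, Ddr2 and Cyb5r3 that p was 0.0854 to 0.762. The plot of these 6 RNAs shows Pkp4 alone with a gap between the lines.

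**Figure D1:**
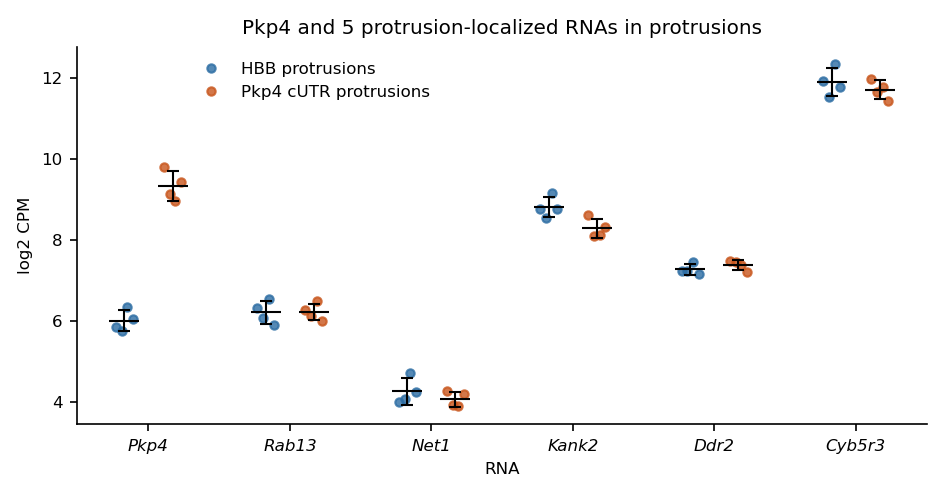
Log2 CPM of Pkp4 and of 5 other RNAs of the localization pathway in the 4 HBB (blue) and 4 Pkp4 cUTR (orange) protrusion samples; horizontal bars with whiskers are the mean ± SD. Pkp4 is higher by 3.32 on the log2 scale, while the groups of the other 5 RNAs overlap.

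Pkp4 included, the protrusions of the lines differed in 923 of 12900 RNAs (7.16%): 373 rose (2.89%) and 550 fell (4.26%) in the Pkp4 cUTR line. Most differences were modest. The median was 0.48 for the RNAs that rose and −0.51 for those that fell, and the median over all RNAs was 0.01. A fold change above 1.5 was seen for 109 RNAs that rose and 228 that fell, and one above 2 for 32 and 99. With the replicate number as a block, 1179 rose (9.14%) and 1310 fell (10.2%), and these included all 923 in the same direction. When the libraries were scaled to their read totals, 203 rose and 591 fell, so that 25.6% of the calls were rises, against 40.4% with the authors' scaling. Leaving out 1 sample left 185 rises without HBB replicate 1, 213 without HBB replicate 3, 212 without HBB replicate 4, 206 without Pkp4 cUTR replicate 2 and 224 without Pkp4 cUTR replicate 3, and falls numbered 360 without HBB replicate 1. A set of 421 RNAs was called in all 8 of these fits. The 8 samples of the groups did not overlap for 814 RNAs that lay higher (6.31%) and 955 that lay lower (7.4%) in the Pkp4 cUTR line.

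The lines differed in much the same way in cell bodies, which were collected from other filters. There 1157 RNAs were called (8.97%), of which 441 rose (3.42%) and 716 fell (5.55%). Called in both fractions were 618 RNAs, all in the same direction, which is 67.0% of the protrusion calls and 53.4% of the cell-body calls. Of the 923 protrusion calls, 913 had the same sign in cell bodies. Across the 10212 RNAs with a mean log2 CPM above 1, Pearson's r between the protrusion and the cell-body differences was 0.81, as a description over RNAs that share lines and replicate numbers. No RNA passed the test of the difference between the fractions at an adjusted p under 0.05 by limma; before adjustment 300 RNAs (2.33%) were under that level. The replicate block, set within each fraction, let 1 RNA pass, Eml4. Neither fit paired the protrusion and cell-body samples of the same line and replicate number, so spread shared by the fractions was not taken out. Without replicate 4 of the cell bodies of both lines, an alternative added after seeing the data, 258 rose and 510 fell in cell bodies.

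**Figure D2:**
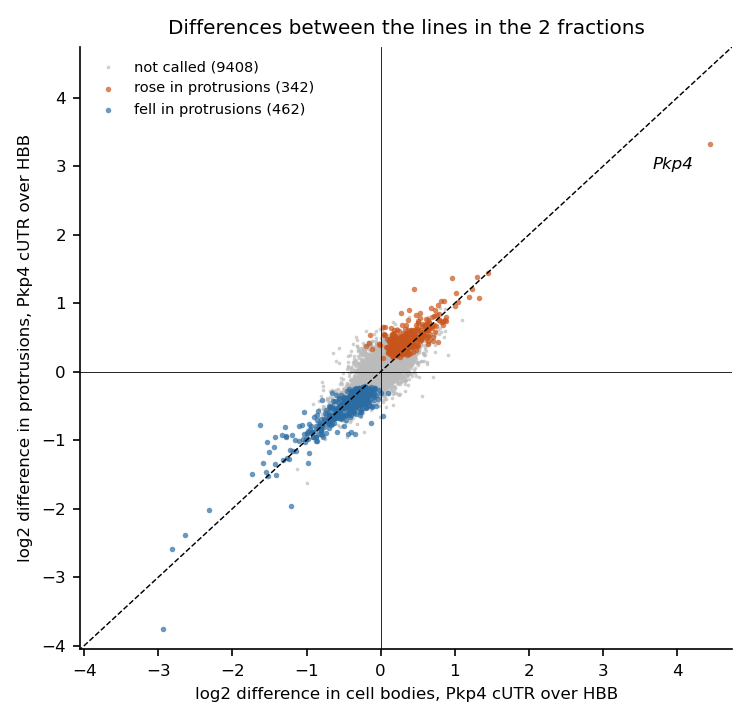
Difference between the lines, log2(Pkp4 cUTR/HBB), in cell bodies (x axis) and protrusions (y axis) for the 10212 RNAs with a mean log2 CPM above 1; orange and blue points rose or fell in protrusions at an adjusted p under 0.05, and the dashed line marks equal differences. The called points follow the dashed line, with Pkp4 at the upper right at 4.44 in cell bodies and 3.32 in protrusions.

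After Pkp4, the most pronounced rises among RNAs with a mean log2 CPM of at least 3 and separate groups were those of Sdpr, Klk8, Hist1h1c, Exoc3l2, Tenm4, Clec2d, Klk10, Asic1 and Top2a. Sdpr (current symbol Cavin2, chr1:51289126-51302960), a coat protein of caveolae, had a log2 CPM of 4.13, 4.35, 4.22 and 4.06 in HBB and of 5.24, 5.79, 5.80 and 5.40 in Pkp4 cUTR protrusions. The lowest Pkp4 cUTR sample exceeded the highest HBB sample, and the difference was 1.36 (SE 0.14, 2.57-fold, adjusted p = 4.66e-06). The kallikrein-related secreted proteases Klk8 and Klk10, neighbours on chromosome 7 at chr7:43797577-43803826 and chr7:43781035-43785410, rose together by 1.03 (SE 0.21, adjusted p = 0.00489) and 0.76 (SE 0.11, adjusted p = 0.000168). For Hist1h1c, a linker histone, log2 CPM was 4.01, 3.64, 3.94 and 3.71 in HBB and 4.83, 4.97, 4.91 and 4.72 in Pkp4 cUTR protrusions. The groups were clearly apart, by 1.03 (SE 0.09, adjusted p = 1.63e-06). Tenm4, a teneurin transmembrane adhesion protein, rose by 0.82 (SE 0.12), the C-type lectin Clec2d by 0.81 (SE 0.13), Exoc3l2, related to exocyst subunits, by 0.85 (SE 0.10), and the acid-sensing ion channel Asic1 by 0.75 (SE 0.11), with adjusted p from 4.13e-05 to 0.000927. Top2a, the topoisomerase of dividing cells, rose by 0.74 (SE 0.21, adjusted p = 0.0357) and was called in 2 of the 8 fits that left out 1 sample.

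Among RNAs with a mean log2 CPM of at least 3 and separate groups, Etl4, Cabp2 and Gpr56 had the most pronounced falls. These were larger than any rise named above other than that of Pkp4. Etl4 (chr2:19909780-20810713), also called sickle tail and known from the notochord and spine, had a log2 CPM of 4.48, 4.44, 4.48 and 4.44 in HBB and of 1.83, 2.01, 2.30 and 2.22 in Pkp4 cUTR protrusions. The HBB samples were nearly identical and more than 2 log2 units above every Pkp4 cUTR sample, a fall of 2.38 (SE 0.13, 5.20-fold, adjusted p = 2.33e-09). Cabp2, a calcium-binding protein related to calmodulin, had 4.18, 3.98, 4.25 and 3.94 in HBB and 1.77, 1.83, 2.64 and 2.01 in Pkp4 cUTR protrusions. It fell by 2.02 (SE 0.16, 4.07-fold, adjusted p = 3.65e-07). Gpr56 (current symbol Adgrg1, chr8:94974751-95014217), an adhesion receptor that binds collagen III, had 8.19, 8.17, 8.08 and 8.31 in HBB and 6.65, 6.58, 6.78 and 6.88 in Pkp4 cUTR protrusions. Its groups did not come near each other, and the difference was −1.46 (SE 0.09, 2.76-fold, adjusted p = 9.48e-09). The xylosyltransferase Xxylt1, which extends sugars on Notch receptors, fell by 1.19 (SE 0.13), Pmepa1, a TGF-β-induced membrane protein that restrains TGF-β signalling, by 1.14 (SE 0.12), and complement component C3 by 1.10 (SE 0.16), with adjusted p from 9.37e-06 to 0.000206. Camk2b, a subunit of calcium/calmodulin-dependent kinase II that bundles actin, fell by 1.02 (SE 0.11, adjusted p = 1.04e-05). Each of these falls was called in all 8 fits that left out 1 sample and had the same sign in cell bodies, where Etl4 differed by −2.64, Cabp2 by −2.32 and Gpr56 by −1.55.

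Among the genes of actin, myosin and contractility, 6 of 61 tested fell and 1 rose in Pkp4 cUTR protrusions, against 4.26% and 2.89% of all RNAs, and the median difference was −0.10 (all RNAs, 0.01). With the replicate block 16 fell (26.2%) and 3 rose (4.92%), against 10.2% and 9.14% of all RNAs. The falls named here are those without the block. The members that fell were the regulatory myosin light chains Myl9 and Myl12a, the myosin light chain kinase Mylk, smooth-muscle actin Acta2, tropomyosin Tpm4, and the actin-bundling protein Fscn1 of filopodia. Myl9 (chr2:156775420-156781658) had a log2 CPM of 5.27, 5.10, 5.54 and 5.39 in HBB and of 4.35, 4.19, 4.50 and 4.16 in Pkp4 cUTR protrusions. Every Pkp4 cUTR sample lay below every HBB sample, a fall of 1.02 (SE 0.10, 2.03-fold, adjusted p = 3.09e-06). Mylk, whose product phosphorylates Myl9, had 3.25, 3.34, 3.23 and 3.40 in HBB and 2.66, 2.13, 2.04 and 2.74 in Pkp4 cUTR protrusions. Its groups were apart as well, and it fell by 0.90 (SE 0.17, adjusted p = 0.00322). Fscn1 fell by 0.54 (SE 0.08, adjusted p = 0.000294). For Acta2, with 7.18, 6.90, 7.50 and 7.34 in HBB and 6.71, 6.47, 6.96 and 6.78 in Pkp4 cUTR protrusions, replicate 3 of the Pkp4 cUTR line exceeded replicate 2 of the HBB line. The difference was −0.50 (SE 0.12, adjusted p = 0.0149), called in 5 of 8 fits without 1 sample. The nonmuscle myosin heavy chain Myh10 rose by 0.37 (SE 0.10, adjusted p = 0.0248). Falls in this list numbered 3 without HBB replicate 3.

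Promoters of the genes that fell together in this list were searched for the CArG box, the element bound by serum response factor, in the 250 bases before and 50 bases after the gene's start (RefSeq, GRCm38.p6). Both strands were read, and the pattern of the box is the same on either. All 6 genes were matched and 1, Myl9, held it. Over all genes 1.81% held it, and over 32851 promoters of the same 300-base length 1.63%. Uncalled members of the list were not searched, so whether the box goes with the fall was not tested. The sequence is shown because it lies upstream of the contractility gene with the lowest adjusted p, with the box in capitals. It is on the plus strand at chr2:156775293-156775322, and the box starts at position −161 from the gene's RefSeq start. That start differs from the start of the GENCODE range given for Myl9 above.
Myl9: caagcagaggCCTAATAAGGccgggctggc

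Of 43 integrin and focal adhesion genes 5 fell (11.6%) and 1 rose (2.33%), against 4.26% and 2.89% of all RNAs, with a median of −0.07. With the replicate block 11 fell (25.6%) and 4 rose (9.30%), against 10.2% and 9.14% of all RNAs. The actin crosslinker Actn4 had a log2 CPM of 9.43, 9.33, 9.39 and 9.35 in HBB and of 9.01, 8.90, 8.97 and 8.98 in Pkp4 cUTR protrusions. The spread within either group was small beside the gap between them, which was −0.41 (SE 0.07, adjusted p = 0.00104). Tns1, which links integrins to actin, fell by 0.61 (SE 0.14, adjusted p = 0.0112) and the tyrosine kinase Src by 0.38 (SE 0.10, adjusted p = 0.0212). The integrin subunits Itgb5 and Itga3 also fell, by 0.23 and 0.33 (adjusted p = 0.0453 for each), and Itgb4, a laminin-binding subunit, rose by 0.50 (adjusted p = 0.0234). Falls numbered 2 in the fits without HBB replicate 1, HBB replicate 4, Pkp4 cUTR replicate 2 or Pkp4 cUTR replicate 3. Csrp1, a LIM-domain protein of actin filaments that was singled out after its values were seen, fell by 0.88 (SE 0.07, adjusted p = 2.78e-07).

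The collagens and other extracellular matrix genes showed the most frequent falls of any list with more than 12 tested members. Of 52 genes 12 fell (23.1%) and 2 rose (3.85%), against 4.26% and 2.89% of all RNAs, with a median of −0.15. With the block 20 fell (38.5%) and 5 rose (9.62%), against 10.2% and 9.14%. The falls and rises named here are those without the block. Those that fell were the thrombospondins Thbs1 and Thbs2, the glycoproteins Fbln1, Tnc, Mgp and Efemp2, the latent TGF-β binding proteins Ltbp1 and Ltbp3, and the collagens Col18a1, Col12a1, Col5a2 and Col4a2. Thbs1 (chr2:118111876-118127133), an adhesive glycoprotein that activates latent TGF-β, had a log2 CPM of 6.63, 6.84, 6.19 and 6.69 in HBB and of 5.41, 5.24, 5.06 and 5.46 in Pkp4 cUTR protrusions. The groups did not overlap, and Thbs1 fell by 1.30 (SE 0.17, 2.45-fold, adjusted p = 0.000114). Fbln1, fibulin of elastic and basement membrane matrix, had 2.92, 2.68, 3.19 and 2.92 in HBB and 1.77, 1.57, 1.89 and 1.77 in Pkp4 cUTR protrusions. It fell by 1.17 (SE 0.16, adjusted p = 0.000126), and Col18a1, the source of endostatin, fell by 0.80 (SE 0.12, adjusted p = 0.000283). Tnc, an adhesion-modulating glycoprotein named here after its values were seen, had 115, 129, 93 and 112 reads in HBB and 63, 53, 27 and 35 reads in Pkp4 cUTR protrusions, lower in all 4 Pkp4 cUTR samples (difference −1.34, SE 0.24, adjusted p = 0.00192). The members that rose were the proteoglycan Vcan, by 0.55 (adjusted p = 0.00372), and the collagen-crosslinking enzyme Lox, by 0.53 with overlapping groups (adjusted p = 0.0291). In cell bodies 21 of the 52 fell and none rose at the threshold, where 5.55% and 3.42% of all RNAs did. The fits without 1 protrusion sample gave 8 to 12 falls.

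The matrix proteases and their inhibitors had 3 falls (10.3%) and 1 rise (3.45%) among 29 genes, against 4.26% and 2.89% of all RNAs. With the block 4 fell (13.8%) and 3 rose (10.3%), against 10.2% and 9.14%. Fits without 1 sample gave 2 to 4 falls. Mmp9, a secreted gelatinase, had 118, 121, 160 and 185 reads in HBB and 23, 16, 27 and 25 reads in Pkp4 cUTR protrusions. The highest Pkp4 cUTR sample was far below the lowest HBB sample, and the difference was −2.59 (SE 0.38, 6.02-fold, adjusted p = 0.000302). Plau, the urokinase plasminogen activator, fell by 0.54 (SE 0.10, adjusted p = 0.00310) and Mmp19 by 0.36 (adjusted p = 0.0343). Adam17, the sheddase of growth factor precursors, rose by 0.43 (SE 0.12, adjusted p = 0.0310), with the call kept in 2 of 8 fits without 1 sample.

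Of 56 growth factors, chemokines and receptors, 8 fell (14.3%) and 1 rose (1.79%), against 4.26% and 2.89% of all RNAs, with a median of −0.15. With the block 15 fell (26.8%) and 3 rose (5.36%), against 10.2% and 9.14%. Ccl2, the monocyte chemoattractant, had a log2 CPM of 6.53, 6.57, 6.59 and 6.75 in HBB and of 5.70, 5.68, 5.87 and 5.78 in Pkp4 cUTR protrusions. The samples within a line were close together and the lines apart by 0.85 (SE 0.08, adjusted p = 3.07e-06), with Ccl2 the lower in Pkp4 cUTR cells. Igfbp7, a secreted binding protein of insulin-like growth factors, fell by 0.53 (SE 0.08, adjusted p = 0.000490), and Lpar1, a receptor for the LPA used to induce the protrusions, by 0.63 (SE 0.13, adjusted p = 0.00491). Lpar1 differed by −0.28 in cell bodies (adjusted p = 0.171). Cx3cl1, Tgfb1, Ptn, Fgf7 and Ccl7 also fell, by 0.32 to 0.74. Met, the receptor of hepatocyte growth factor, rose by 0.57 (SE 0.11, adjusted p = 0.00305). Falls numbered 4 without Pkp4 cUTR replicate 2 and 5 without HBB replicate 1, Pkp4 cUTR replicate 1 or Pkp4 cUTR replicate 3. Of 43 immediate early and SRF/YAP target genes, 2 rose (4.65%, Ajuba and Klf6) and 3 fell (6.98%, Maff, Acta2 and Nr4a1), against 2.89% and 4.26% of all RNAs. With the block 4 rose (9.30%) and 10 fell (23.3%), against 9.14% and 10.2% of all RNAs. Falls in this list numbered 1 without HBB replicate 3, HBB replicate 4 or Pkp4 cUTR replicate 2, and 5 without Pkp4 cUTR replicate 3. Of 40 interferon response genes, 4 fell (10%, Bst2, Xaf1, Lgals3bp and H2-D1) and none rose, against 4.26% and 2.89% of all RNAs. The falls numbered 6 with the block (15%, against 10.2%), and 2 without HBB replicate 1, HBB replicate 2 or Pkp4 cUTR replicate 2. Among 9 Wnt target genes, Wisp2, a secreted matricellular protein, fell by 0.89 (SE 0.10, adjusted p = 2.15e-05) and Tcf7, a transcription factor of the pathway, rose by 0.57 (SE 0.13, adjusted p = 0.0123), and with the block 1 rose and 2 fell.

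Cell cycle and mitosis genes moved the other way. Of 75 tested, 16 rose (21.3%) and 2 fell (2.67%), against 2.89% and 4.26% of all RNAs. The median difference was 0.41, and 66 of the 75 differences were above 0, against 6804 of all 12900. Rises covered the DNA replication helicase subunits Mcm3, Mcm4 and Mcm6, the ribonucleotide reductase subunits Rrm1 and Rrm2, thymidine kinase Tk1, the cyclins Ccna2 and Ccnb1, the phosphatases Cdc25a, Cdc25c and Cdkn3, and the mitotic genes Top2a, Kif4, Mad2l1, Racgap1 and Anln. Mcm4 had a log2 CPM of 2.24, 2.41, 2.80 and 2.60 in HBB and of 3.13, 3.25, 3.23 and 3.45 in Pkp4 cUTR protrusions. All Pkp4 cUTR samples were higher, by 0.76 (SE 0.13, adjusted p = 0.00133). Rrm2, which supplies deoxynucleotides for replication, had 1.48, 1.41, 1.69 and 1.76 in HBB and 2.35, 2.15, 2.58 and 2.44 in Pkp4 cUTR protrusions. It rose by 0.80 (SE 0.15, adjusted p = 0.00229), and Racgap1, of the cytokinetic midzone, by 0.53 (SE 0.13, adjusted p = 0.0168). The inhibitor Cdkn2c and the cyclin Ccnd3 fell, by 0.35 and 0.23 (adjusted p = 0.0187 and 0.0343).

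The size of the cell cycle rise varied between samples of one line. The median over the 75 genes of log2 CPM, centred over the 8 samples, was −0.23, −0.26, −0.14 and −0.10 in HBB and 0.01, −0.05, 0.44 and 0.43 in Pkp4 cUTR protrusions. Replicates 3 and 4 of the Pkp4 cUTR line were thus well above its replicates 1 and 2. The number of rises was 5, 4, 8 and 8 without HBB replicates 1, 2, 3 and 4, and 16, 10, 3 and 4 without Pkp4 cUTR replicates 1, 2, 3 and 4. It was 37 with the replicate block (49.3%, against 9.14% of all RNAs) and 7 with libraries scaled to read totals. In cell bodies 20 of the 75 rose and 1 fell, where 3.42% and 5.55% of all RNAs did.

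**Figure D3:**
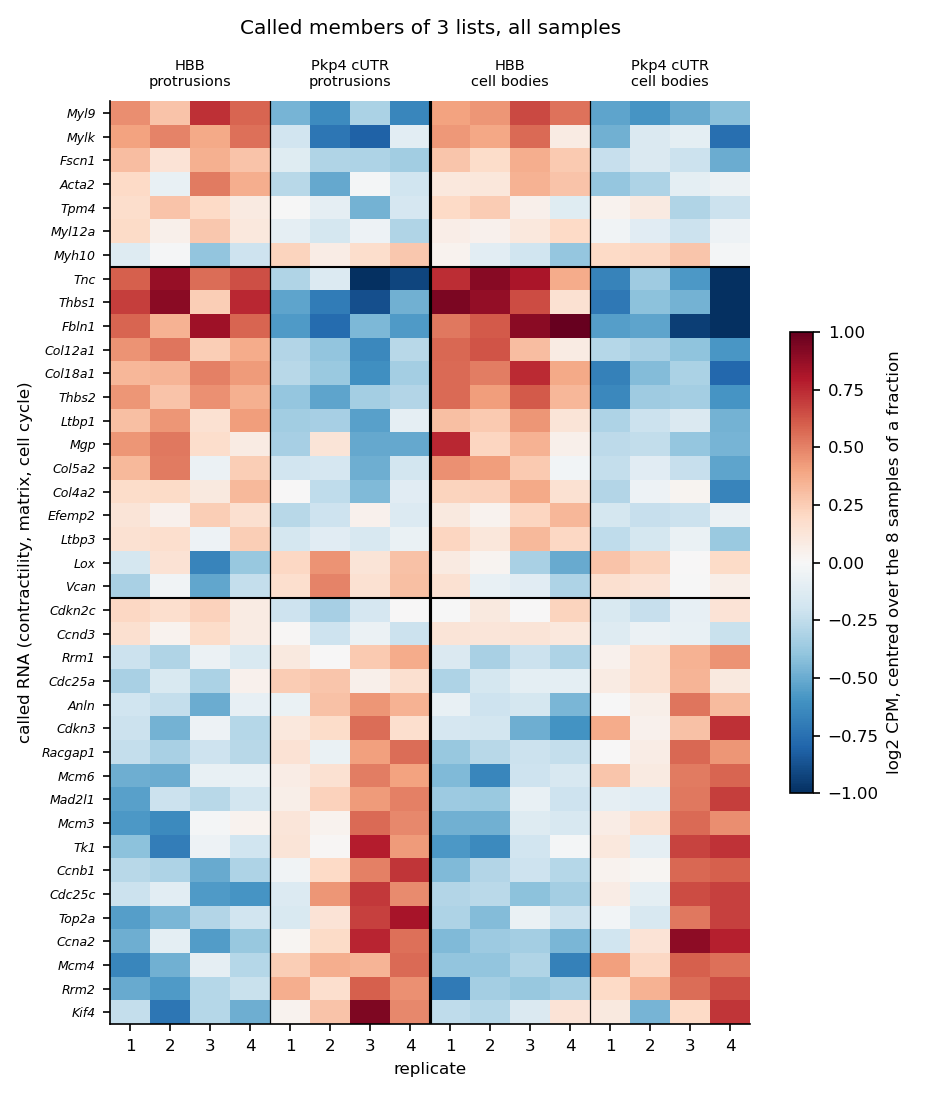
Log2 CPM of every called member of the contractility (top), matrix (middle) and cell cycle (bottom) lists in all 16 samples, centred over the 8 samples of a fraction (red above, blue below the mean; colours end at 1 log2 unit). Most rows show the same split between lines in both fractions, and most of the cell cycle genes that rose are highest in Pkp4 cUTR replicates 3 and 4.

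The promoters of the cell cycle genes that rose were searched on both strands for 4 words of the E2F site, TTTCCCGC, TTTGGCGC, TTTCGCGC and TTTGCCGC. Of the 16 genes, 13 were matched, and 3 of these, Mcm3, Mcm6 and Cdc25a, held a word. Over all genes 2.605% held one, and over all promoters of the same length 2.26%. Uncalled members of the list were not searched, so whether the words go with the rise was not tested. The windows of Mcm6 and Cdc25a are given below with the word in capitals, because these lie before the start of called cell cycle genes. Those of Mcm6 lie on the minus strand at chr1:128359797-128359826 and chr1:128359734-128359763 (word starting at −110 and −47), and that of Cdc25a on the plus strand at chr9:109875501-109875530 (word starting at −67). The first word of Mcm6 overlaps a second one on the other strand. Mcm6 rose by 0.58 (SE 0.14, adjusted p = 0.0196) and Cdc25a by 0.37 (SE 0.11, adjusted p = 0.0475), and the calls were kept in 4 and 2 of 8 fits without 1 sample.
Mcm6, first: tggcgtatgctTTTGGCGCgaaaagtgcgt
Mcm6, second: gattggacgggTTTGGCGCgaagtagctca
Cdc25a: ggtgaattccgTTTGGCGCcaactaggaaa

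With the block, 6 of the 15 histone RNAs tested rose (40%) and 1 fell (6.67%), against 9.14% and 10.2% of all RNAs. Without it 4 rose (26.7%, against 2.89%) and none fell at the threshold, with a median of 0.11. Besides Hist1h1c these were Hist1h2bc, a core histone of the replication-dependent cluster (difference 1.02, SE 0.17, adjusted p = 0.00106), Hist1h4i, and the replication-independent variant H3f3b (difference 0.37, SE 0.07, adjusted p = 0.00461). Replication-dependent histone mRNAs largely lack a poly(A) tail, and the labels and the methods name the library kit as one for total RNA and one for mRNA, respectively, so how well these RNAs were captured is not known. Translation factors had 4 rises (7.41%, against 2.89% of all RNAs) and no fall among 54 genes and a median of 0.11. With the block 13 rose (24.1%) and 2 fell (3.70%), against 9.14% and 10.2%. The initiation factor subunit Eif3c had a log2 CPM of 8.25, 8.20, 8.21 and 8.19 in HBB and of 8.52, 8.56, 8.59 and 8.43 in Pkp4 cUTR protrusions. This small but regular shift was 0.31 (SE 0.06, adjusted p = 0.00502). Eif2b5 and Eif2b2, subunits of the exchange factor for initiation factor eIF2, rose by 0.25 and 0.29 (adjusted p = 0.0272 and 0.0273), with the calls kept in 3 and 4 of 8 fits without 1 sample. Rises of translation factors numbered 1 to 4 in those fits.

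Among the 42 heat shock proteins and chaperonins 3 rose and 1 fell (block, 8 and 2). Hsph1, a nucleotide exchange factor of Hsp70, rose by 0.40 (SE 0.08, adjusted p = 0.00390), the mitochondrial Hsp70 Hspa9 by 0.38 (SE 0.09, adjusted p = 0.0151) and the small heat shock protein Cryab by 0.28 (SE 0.08, adjusted p = 0.0334), while Hspb7 fell by 0.68 (adjusted p = 0.0421). The calls of Hspa9 and Cryab were kept in 7 and 2 of 8 fits without 1 sample, and rises in the list numbered 1 without Pkp4 cUTR replicate 2 and 5 without Pkp4 cUTR replicate 1. The stress response list had 4 rises (10%) and 2 falls (5%) among 40 genes, against 2.89% and 4.26% of all RNAs. With the block 11 rose (27.5%) and 6 fell (15%), against 9.14% and 10.2%. Oxidative stress members of the list moved in both directions. Nqo1, a quinone reductase induced by oxidative stress, had a log2 CPM of 6.86, 7.05, 7.05 and 6.91 in HBB and of 7.55, 7.44, 7.51 and 7.56 in Pkp4 cUTR protrusions. It was higher in all Pkp4 cUTR samples, by 0.55 (SE 0.06, adjusted p = 1.04e-05). Gstm1, a glutathione transferase of the same kind of response, had a mean log2 CPM of 9.78 ± 0.10 (SD, n = 4) in HBB and of 9.11 ± 0.12 in Pkp4 cUTR protrusions. It was lower in all 4 Pkp4 cUTR samples, by 0.68 (SE 0.07, adjusted p = 4.89e-06). The pseudokinase Trib3 of the amino acid response rose by 0.56 (SE 0.10, adjusted p = 0.00218), as did Psat1 of serine synthesis and Pdia6 of protein folding, and the peroxiredoxin Prdx1 fell by 0.36 (adjusted p = 0.0133).

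**Figure D4:**
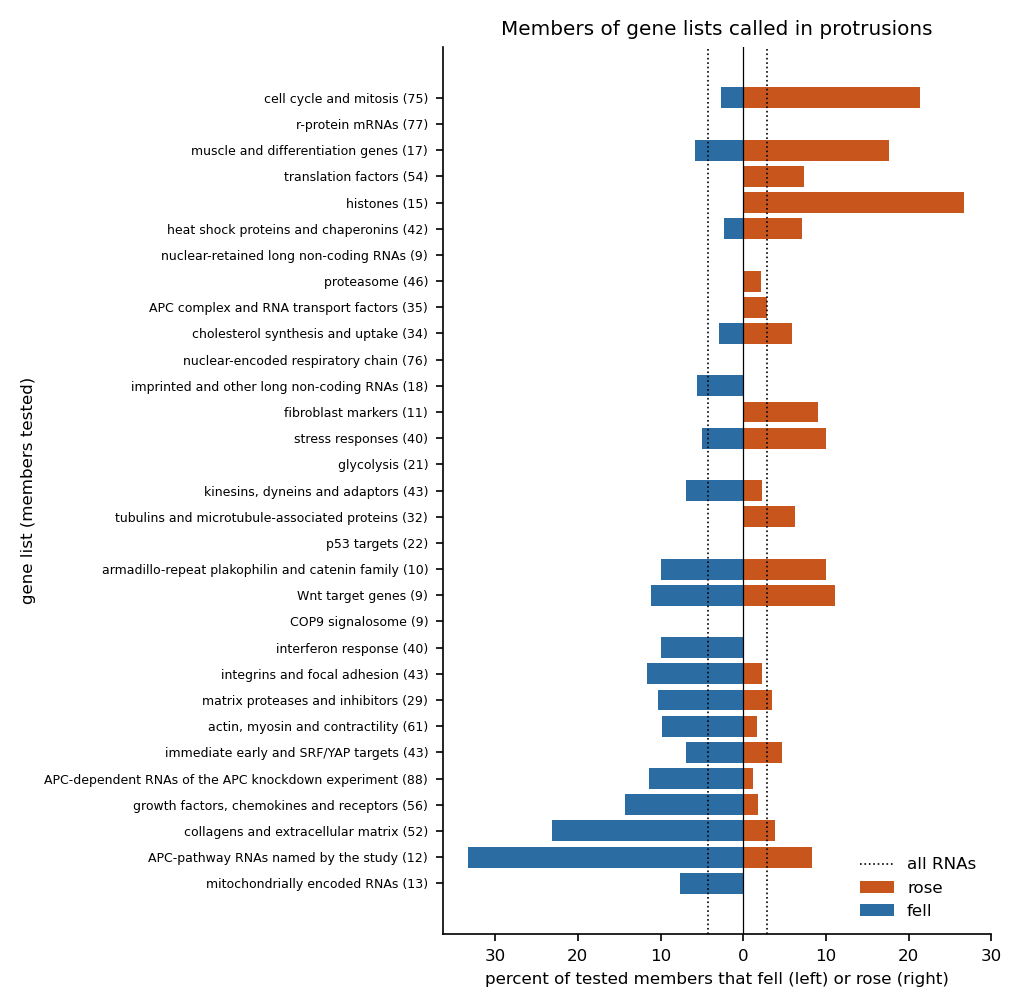
Percent of the tested members of each gene list that rose (orange, right) or fell (blue, left) in Pkp4 cUTR against HBB protrusions, ordered by the median difference of the list, with the number tested in brackets and dotted lines at the values for all RNAs (2.89% rose, 4.26% fell). Cell cycle genes lie at the top with 21.3% risen, and the matrix genes near the bottom with 23.1% fallen.

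Metabolic and housekeeping groups gave few calls each without the replicate block. With it, members of the ribosomal protein, proteasome and cholesterol lists rose more often than all RNAs. None of 76 nuclear-encoded respiratory chain genes, 21 glycolysis genes, 22 p53 targets or 9 COP9 signalosome genes passed the test (limma), where 7.16% of all RNAs did. Apart from the respiratory chain genes, these lists are too short to set the absence of calls apart from that share. At an unadjusted p under 0.05 these lists had 2, 2, 8 and 1 members, against 2837 of all 12900 RNAs. With the block 3, 3, 6 and 0 were called, against 2489 of all RNAs. Of 46 proteasome genes 1 rose, Psmc6 (2.17%, against 2.89% of all RNAs). With the block 8 rose (17.4%) and 1 fell (2.17%), against 9.14% and 10.2% of all RNAs. Of 34 genes of cholesterol synthesis and uptake, Fdft1 (squalene synthase) and Acaca rose, by 0.31 and 0.27 (adjusted p = 0.0110 and 0.0477), and Hsd17b7 fell by 0.42 (adjusted p = 0.0247). These rises and this fall were 5.88% and 2.94% of the list, against 2.89% and 4.26% of all RNAs. Of the 8 fits without 1 sample, Fdft1 was called in 8, Hsd17b7 in 4 and Acaca in 0. With the block 6 members rose (17.6%) and 3 fell (8.82%), against 9.14% and 10.2% of all RNAs. None of the 77 mRNAs of cytosolic ribosomal proteins passed the test. Their median was 0.19, and 76 of the 77 differences were above 0, against 6804 of all 12900. Of the 77, 8 had an unadjusted p under 0.05 (limma) and 35 rose with the replicate block (45.5%, against 9.14% of all RNAs). The summed level of the 77 mRNAs was 228127 to 281921 CPM in HBB and 237436 to 356387 CPM in Pkp4 cUTR protrusions, and the groups overlapped. With quantile normalization their median was 0.05. The 95 ribosomal protein pseudogenes, which share sequence with these mRNAs, gave no call either, with a median of 0.16 and 5 rises with the block; none had an unadjusted p under 0.05.

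The 13 mitochondrially encoded RNAs tested all had differences below 0, with a median of −0.30, against 0.02 in cell bodies. Their summed level was 16729 to 27749 CPM in HBB and 11537 to 19304 CPM in Pkp4 cUTR protrusions, with overlapping ranges. With the block 5 of the 13 fell (38.5%, against 10.2% of all RNAs). Without it a single member fell (7.69%, against 4.26%), mt-Co1, which encodes a subunit of cytochrome c oxidase. Its log2 CPM was 13.68, 13.70, 14.16 and 13.50 in HBB and 13.61, 12.96, 12.65 and 13.26 in Pkp4 cUTR protrusions. Replicate 1 of the Pkp4 cUTR line lay within the HBB range, the difference was −0.65 (SE 0.19, adjusted p = 0.0499), and the call was kept in 1 of 8 fits without 1 sample.

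Within the microtubule and transport machinery, changes were scattered. Of 43 kinesins, dyneins and adaptors 3 fell (6.98%) and 1 rose (2.33%), against 4.26% and 2.89% of all RNAs. With the block 7 fell (16.3%) and 5 rose (11.6%), against 10.2% and 9.14%. The dynactin subunit Dctn6 had a log2 CPM of 5.76, 5.65, 5.77 and 5.58 in HBB and of 5.15, 5.12, 5.29 and 4.97 in Pkp4 cUTR protrusions. It fell by 0.56 (SE 0.07, adjusted p = 0.000102), and by less in cell bodies, where the difference was −0.26 (unadjusted p of the difference between fractions = 0.0110). The kinesin light chain Klc2 fell by 0.40 (SE 0.08, adjusted p = 0.00599), the dynein light chain Dynll2 by 0.52 (SE 0.11, adjusted p = 0.00657), and the kinesin-2 motor subunit Kif3a rose by 0.54 (SE 0.14, adjusted p = 0.0255). Among 32 tubulins and microtubule-associated proteins, Tubb2a and the plus-end protein Clasp2 rose (6.25%, against 2.89% of all RNAs), by 0.30 and 0.55 (adjusted p = 0.0219 and 0.0290). Their calls were kept in 4 and 3 of 8 fits without 1 sample, and the list had 3 falls without Pkp4 cUTR replicate 1. With the block 5 rose (15.6%) and 7 fell (21.9%), against 9.14% and 10.2% of all RNAs. Of 35 components of the APC complex and RNA transport 1 rose, the formin Diap3 (difference 0.60, SE 0.17, adjusted p = 0.0411), called in 1 of 8 fits without 1 sample. With the block 4 rose (11.4%) and 3 fell (8.57%), near the 9.14% and 10.2% of all RNAs. Pkp2, a desmosomal plakophilin, fell by 0.46 (SE 0.14, adjusted p = 0.04995), with the call kept in 1 of 8 such fits; it and Pkp4 were the called members among 10 plakophilins and catenins (block, 1 rise and 2 falls).

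The study listed 91 RNAs as dependent on APC in a separate knockdown experiment. Of these, 88 were tested here, and in Pkp4 cUTR protrusions 10 fell (11.4%) and 1, Pkp4, rose, against 4.26% and 2.89% of all RNAs, with a median of −0.14. The median over the 88 of log2 CPM, centred over the 8 samples, overlapped between the lines. It was 0.08, −0.11, 0.32 and 0.04 in HBB and 0.12, −0.13, −0.05 and −0.18 in Pkp4 cUTR protrusions. With the block 17 fell (19.3%) and 4 rose (4.55%), against 10.2% and 9.14%. In cell bodies 5 fell and 2 rose, where 5.55% and 3.42% of all RNAs did, and the median was 0.06. The difference between fractions had an unadjusted p under 0.05 (limma interaction) for 12 of the 88, in either direction, against 300 of all 12900 RNAs. Pkp4, on which construct and endogenous reads are counted together, is among these 12. Fgd3, an exchange factor for Cdc42, had a log2 CPM of 7.34, 7.02, 8.03 and 7.63 in HBB and of 6.56, 6.17, 6.62 and 6.60 in Pkp4 cUTR protrusions. Its groups were apart by 1.02 (SE 0.17, adjusted p = 0.000995), with Pkp4 cUTR the lower. Trp53inp2, a nuclear and autophagy protein, had 8.96, 8.68, 9.28 and 8.88 in HBB and 8.65, 8.19, 8.11 and 8.29 in Pkp4 cUTR protrusions. Its Pkp4 cUTR samples were below all HBB samples, and it fell by 0.64 (SE 0.13, adjusted p = 0.00410). Pde2a, a cyclic nucleotide phosphodiesterase at a low level, Myl6b, Dynll2, Kctd10, Kank2, Palld, Rassf3 and mt-Co1 fell as well. Of these, Kctd10 and Rassf3 differed by −0.51 and −0.50 in protrusions and by −0.12 and −0.06 in cell bodies (unadjusted p of the difference = 0.0205 and 0.0336). Falls in the list numbered 6 without HBB replicate 3 or without Pkp4 cUTR replicate 3. Over the 12 RNAs of the pathway that the study named, 4 fell (33.3%, Trp53inp2, Dynll2, Kank2 and Palld) and 1 rose (8.33%, Pkp4), against 4.26% and 2.89% of all RNAs. The median was −0.20. Centred over the 8 samples, the list median was −0.06 in HBB replicate 2 and 0.08 in Pkp4 cUTR replicate 1, so the lines overlapped. Falls numbered 2 without HBB replicate 3 or without Pkp4 cUTR replicate 3. For 3 of the 12, Pkp4 among them, the difference between fractions had an unadjusted p under 0.05 (limma interaction), against 2.33% of all RNAs.

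Eml4, Usp15 and Palld were among the called RNAs picked for the largest gap between their protrusion and cell-body differences. The unadjusted p of that gap (limma interaction) follows from this choice and is no separate support. None passed after adjustment over all RNAs without the replicate block. Eml4, a microtubule-binding protein, had a log2 CPM of 4.14, 4.42, 3.89 and 4.15 in HBB and of 3.34, 3.65, 3.31 and 3.25 in Pkp4 cUTR protrusions, and of 4.85, 4.92, 4.60 and 4.33 in HBB and 3.23, 3.05, 2.89 and 3.05 in Pkp4 cUTR cell bodies. It fell in both fractions, by 0.77 in protrusions (SE 0.14, adjusted p = 0.00257) and by 1.62 in cell bodies (unadjusted p of the difference = 0.000385). Usp15, a deubiquitinating enzyme, rose by 0.38 in protrusions (SE 0.11, adjusted p = 0.0350) and differed by −0.19 in cell bodies (unadjusted p = 0.00262), and its call was kept in 2 of 8 fits without 1 sample. Palld, the actin scaffold palladin, had 3.87, 3.82, 4.18 and 3.99 in HBB and 3.72, 3.12, 2.21 and 3.13 in Pkp4 cUTR protrusions. Replicate 3 of the Pkp4 cUTR line was the lowest, all 4 lay below the HBB samples, and the difference was −0.90 (SE 0.23, adjusted p = 0.0212), against −0.35 in cell bodies (unadjusted p = 0.135).

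The differences were unevenly spread over the genome. Over 10158 RNAs with a mean log2 CPM above 1 and a known position, 3.36% rose and 4.55% fell (block, 1098 and 1149 RNAs). On chromosome 14, 32 of 321 rose (9.97%) and 5 fell (1.56%; block, 94 and 7), the median was 0.15 in protrusions and 0.16 in cell bodies, and 77.6% of the differences were above 0. On chromosome 19, 7 of 377 rose (1.86%) and 36 fell (9.55%; block, 16 and 92), the median was −0.07, and 36.3% were above 0. These regions were chosen after their values were seen. Replicates were alike in this: the median of log2 CPM over chromosome 14, centred over the 8 samples, was −0.08, −0.05, −0.07 and −0.08 in HBB and 0.05, 0.06, 0.06 and 0.08 in Pkp4 cUTR protrusions. The medians of the other autosomes and of the X chromosome lay between −0.02 and 0.06 in protrusions.

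**Figure D5:**
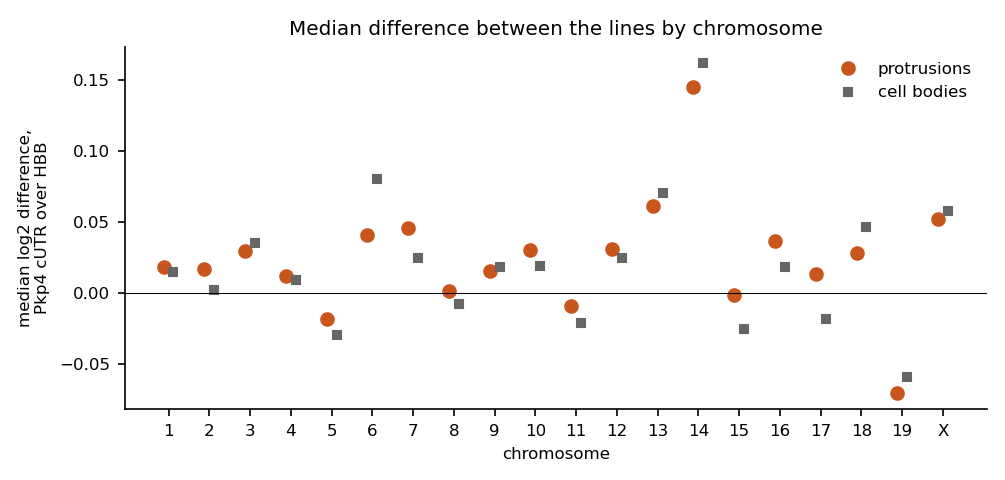
Median difference between the lines, log2(Pkp4 cUTR/HBB), of the RNAs of each chromosome with a mean log2 CPM above 1, in protrusions (circles) and cell bodies (squares). Among the autosomes and the X chromosome, chromosome 14 is the highest, at 0.15 and 0.16, and chromosome 19 the lowest, at −0.07 and −0.06.

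Runs of neighbouring genes were read as medians over 21 genes in a row, and 109 of 9743 such windows (1.12%) lay beyond 0.2 in either direction. The densest run of falls was at chr19:3282901-5118560, where 16 of 55 RNAs fell (block, 29) and none rose at the threshold, with a median of −0.22 in both fractions. It holds Cabp2, Klc2, the carnitine palmitoyltransferase Cpt1a, the small GTPase Rhod and Pcx, pyruvate carboxylase of mitochondria. Pcx had a log2 CPM of 6.28, 6.01, 6.04 and 6.04 in HBB and of 5.32, 5.14, 5.11 and 5.14 in Pkp4 cUTR protrusions, lower by 0.91 in the latter (SE 0.09, adjusted p = 3.61e-06). A run on chromosome 11, chr11:102248882-105140394, had 7 falls among 35 RNAs (block, 15), with Eftud2, a GTPase of the spliceosome, at −0.98 (SE 0.08, adjusted p = 2.48e-07). On chromosome 7 a run of rises, chr7:34201330-44252319, held Klk10 and Klk8 and had 5 rises among 33 RNAs (block, 10). Runs that lay higher on chromosome 14 held list members named above. Psmc6 and Cdkn3 lay in chr14:45133465-52257780, with 6 rises among 37 RNAs (block, 13). Fdft1 lay in chr14:55745693-63179578, with 7 among 33 (block, 13), and Diap3 in chr14:75702350-118925460, with 1 rise and 1 fall among 39 (block, 11 rises and 1 fall). The number of gene copies in the lines and the sites where the constructs integrated were not measured, and their part in these runs was not tested.

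Markers of other cell types were low, with a few exceptions. Fibroblast markers were expressed throughout, 11 of 13 being in the table (Thy1 and Fap were not), with a summed level of 19378 to 20541 CPM in HBB and 21271 to 22668 CPM in Pkp4 cUTR protrusions, and Prrx1, a mesenchymal transcription factor, rose by 0.41 (SE 0.09, adjusted p = 0.0126) as the 1 called member (block, 2 rises). Of 10 epithelial markers 3 were in the table, without Epcam, Krt5 and Krt18, and 2 rose. Krt14, a basal keratin, had 7.49, 7.25, 7.26 and 7.17 in HBB and 8.07, 8.08, 8.06 and 7.79 in Pkp4 cUTR protrusions on the log2 CPM scale. It was higher in every Pkp4 cUTR sample, by 0.70 (SE 0.09, adjusted p = 5.38e-05), and the summed epithelial level was 159 to 192 CPM in HBB and 240.2 to 285 CPM in Pkp4 cUTR protrusions. Of the immune markers 4 of 10 were in the table, without Ptprc, Itgam and Adgre1 (41.3 to 45.0 CPM summed in HBB, 33.7 to 38.2 in Pkp4 cUTR), of the endothelial markers 3 of 8 (1.10 to 1.47 and 1.49 to 1.62 CPM) and of the neural markers 4 of 8, without Rbfox3 and Snap25 (22.8 to 24.0 and 16.05 to 19.7 CPM). In these 3 lists Csf1r and Gfap fell, both at low levels, and none rose (block, 3 immune and 2 neural falls). The nuclear-retained long non-coding RNAs, which report on nuclear material in the protrusion fraction, summed to 335 to 545 CPM in HBB and 324 to 527 CPM in Pkp4 cUTR protrusions, and none of the 9 tested was under an unadjusted p of 0.05 (limma). Of 18 imprinted and other long non-coding RNAs 1 fell (5.56%, against 4.26% of all RNAs), Dancr, by 0.42 (adjusted p = 0.0153). With the block 3 rose (16.7%) and 2 fell (11.1%), against 9.14% and 10.2%. Among 17 muscle and differentiation genes 3 rose (17.6%) and 1 fell (5.88%), against 2.89% and 4.26% of all RNAs. With the block 4 rose (23.5%) and 2 fell (11.8%), against 9.14% and 10.2%. The intermediate filament Des fell by 0.69 (SE 0.09, adjusted p = 5.35e-05). Cebpd, a factor of adipocyte differentiation, rose by 0.47 (SE 0.13, adjusted p = 0.0283), as did Myl7 and Adipoq, both low. Adipoq, the adipocyte hormone adiponectin, singled out after its values were seen, had 0, 1, 0 and 0 reads in HBB and 25, 20, 21 and 17 reads in Pkp4 cUTR protrusions, so that it was read in all Pkp4 cUTR samples and, with 1 read, in a single HBB sample.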

How the data were processed

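RNA-Seq of protrusion and cell-body fractions was analysed for 4 samples in each of 4 groups (2 lines, 2 fractions). Per the labels and the methods of the study, RNA was made into stranded Illumina libraries (a total RNA kit by the labels, an mRNA kit by the methods, so the selection of RNA is not settled), reads were aligned to mm10 by STAR 2.4.2a and counted per gene (GENCODE), and limma 3.26.1 (voom) gave the deposited log2 CPM values: (reads + 0.5)/(scaled library size + 1) × 1000000. The authors kept RNAs with a log2 CPM above 0.5 in any sample. The table holds no other values.

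The steps between low values returned the reads behind each deposited log2 CPM, of which 100% were within 0.01 of a whole number. These reads, with the library sizes as the authors had scaled them, were weighted by voom in limma 3.58.1 (R 4.3.3; Python 3.11.15 for tables), with all 16 samples, one mean per group, and empirical Bayes moderation. Contrasts were Pkp4 cUTR over HBB in protrusions, the same in cell bodies, and their difference, each with Benjamini-Hochberg adjustment over 12900 RNAs. A count of 3 reads was taken as the floor. The fit was tested on simulated data.

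The replicate numbers come from the labels. Deviations from the group means correlated between same-numbered protrusion samples of the lines (0.21, 0.32, 0.36 and 0.39 across 10212 RNAs, mean 0.32). Each sample correlated most with its own number in the other line. However, HBB replicate 1 was nearly as close to Pkp4 cUTR replicate 2 (0.18) as to replicate 1. Centring on group means ties the mean of the other pairs (−0.11) to that of the same-numbered pairs, so it is no separate contrast. The numbers thus went with a pairing that was weak for replicate 1. The methods state no block. Counts from a fit with the replicate block are given beside those of list members that it moved by more than 1.5 times.

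Named RNAs were Pkp4; the 10 most pronounced rises and falls with a mean log2 CPM of at least 3, groups apart and a name that is not a predicted gene, Rik clone or pseudogene; from each of 36 lists the 3 called members with the lowest adjusted p (mean log2 CPM of at least 1); Rab13, Net1, Kank2, Ddr2 and Cyb5r3; and the 5 called RNAs (mean at least 3) with the largest gap between fractions. Further members were named as examples of their list. The comparison, the members and the lists were chosen with earlier results of these data known. Positions are those of GENCODE vM21 on GRCm38 (12321 RNAs found by symbol, 444 by an older one, 99.0%). Overlapping genes and genes with near-identical copies, such as the histones and ribosomal proteins, are uncertain, since the sources do not say how such reads were divided. Alternatives were other weights, scalings, filters, thresholds, a pseudocount of 1, 8 samples only, the block, and leaving out each protrusion sample.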

Additional observations from a re-analysis of the deposited data

Results flagged for a closer look

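In 6 of the 180 groups of 4 protrusion samples examined for the named RNAs, a sample lay apart from the other 3 by more than Dixon's 95% critical value. Chance alone gives about 1 such group in 20. The log2 CPM of Fgd3 in Pkp4 cUTR replicate 2 was 6.17, with the others between 6.56 and 6.62. Hist1h2bc was at 1.03 in HBB replicate 4 and at 1.63 to 1.75 in the others. Krt14 was at 7.79 in Pkp4 cUTR replicate 4 and at 8.06 to 8.08 in the others. Adipoq was at −3.77 in HBB replicate 2, which held its single read, and at −5.47 to −5.20 in the others. Pcx was high in replicate 1 of both lines, at 6.28 in HBB (others 6.01 to 6.04) and at 5.32 in Pkp4 cUTR protrusions (others 5.11 to 5.14). The calls of these 5 RNAs were kept in all 8 fits that left out 1 protrusion sample.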

How the results depend on the processing

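Of the 90 named RNAs 86 passed the test, and under 19 alternatives their 1630 values kept the call 1456 times, lost it 174 times and never reversed; 57 RNAs kept it under every alternative. The replicate block gave 1179 rises and 1310 falls in protrusions, 1367 and 1533 in cell bodies, 1 RNA for the difference between fractions, and 336 called members of the gene lists, and it removed no call of a named RNA. Scaling to library totals gave 203 rises. A fold threshold of 1.5 left 109 rises and 228 falls, one of 2 left 32 and 99. Leaving out 1 protrusion sample gave 185 to 429 rises, 360 to 544 falls and 67 to 119 called list members. Without replicates 4, chosen after seeing the data, cell bodies had 258 rises. The cause of these changes was not tested; fits with fewer samples have less power. Each line was 1 culture lineage, so p-values measure the spread between its samples. Depth limits RNAs near 3 reads, such as Adipoq in the HBB line.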
